A study of Homo sapiens with 12 samples.

Results

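Replication-coupled chromatin and DNA methylation genes were followed as a set of 10 members, chosen by symbol from 60612 named rows of a gene count table. The members were DNMT1, UHRF1, HELLS, CHAF1A, CHAF1B, ASF1A, ASF1B, EZH2, SUV39H1 and SUV39H2, and all 10 had a row and were among the 11803 genes tested. Transcripts were counted by 3′ RNA sequencing in wild-type CAMA-1 cells, an established human luminal breast cancer line positive for the oestrogen receptor (ER). The 4 treatments were DMSO as vehicle, abemaciclib (an inhibitor of CDK4 and CDK6) at 100 nM, fulvestrant (a selective ER degrader) at 5 nM, and abemaciclib and fulvestrant together, here called the combination. RNA was profiled after 5 days of treatment, and the labels do not restate the doses within the combination. There were 3 biological replicates per treatment, 12 libraries in all, from this single line grown in medium with serum.

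When DNA is copied, its packaging has to be copied with it. UHRF1 recognises CpG sites that are methylated on the parental strand only and brings in DNMT1, which methylates the daughter strand, and HELLS is a remodelling ATPase that opens nucleosomal DNA to this machinery. Behind the fork, the ASF1 proteins hand newly made histone pairs to chromatin assembly factor CAF-1, whose large and middle subunits are CHAF1A and CHAF1B. EZH2, the catalytic subunit of Polycomb repressive complex PRC2, and the SUV39H enzymes then restore the silencing methyl marks on histone H3 at lysines K27 and K9. Many of these genes are known targets of E2F factors, which the retinoblastoma protein holds in check until the CDK4 and CDK6 kinases inactivate it.

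Total counts ranged from 3299119 to 5164667 per library, and the nearest neighbour of all 12 libraries by correlation was a replicate of the same treatment. Fulvestrant replicate 3 stood farthest from its group, so members' calls that change without it are given both ways. The cells had a luminal profile: all 7 luminal epithelial markers were detected in every group. Their summed level was 5556 to 7653 CPM (counts scaled to a common library total). No marker that tells CAMA-1 from other luminal lines was read. The endothelial marker PECAM1 had no count, the leukocyte marker PTPRC stayed at or below 0.241 CPM and the basal keratins KRT5 and KRT14 together at or below 0.912 CPM. The collagens COL1A1 and COL3A1, listed as fibroblast markers, summed to 17.8 to 21.7 CPM in DMSO and 23.7 to 36.9 CPM in the treated libraries, and their part in the results was not tested. The proliferation transcripts followed here also fell against DMSO with each treatment. The summed level of MKI67, TOP2A and PCNA was 2418 to 2694 CPM in DMSO, 446 to 505 CPM in abemaciclib, 234 to 280 CPM in fulvestrant and 39.6 to 46.3 CPM in the combination. In DMSO most of the sum was TOP2A (1800 CPM). PCNA did not step down from abemaciclib to fulvestrant (208 CPM in DMSO, then 40.5, 45.2 and 27.3 CPM in the same order). The part of these transcripts in the members' values was not tested, and in bulk RNA a smaller number of cells in S phase cannot be told apart from less transcript per cell.

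Against DMSO, 8 of the 10 members fell with abemaciclib and 9 of 10 fell with fulvestrant and with the combination, and none rose (0 also at an unadjusted p under 0.05 and with DESeq2, in these and in the other pairwise comparisons). ASF1A did not pass the test in any comparison. The background was wide. Of all genes tested, 20.7% were called lower and 20.5% higher with abemaciclib, 25.7% lower and 25.3% higher with fulvestrant, and 27.5% lower and 27.7% higher with the combination (edgeR's quasi-likelihood test at a Benjamini-Hochberg adjusted p under 0.05). The members' median log2 fold change was -1.58 with abemaciclib, -2.14 with fulvestrant and -2.41 with the combination, where the median over all genes was at most 0.0103. Their summed level was 1148 ± 6.52 CPM in DMSO, 398 ± 17.3 CPM in abemaciclib, 315 ± 6.46 CPM in fulvestrant and 239 ± 10.6 CPM in the combination (SD, n = 3). These 3 comparisons share their DMSO libraries, so each is given by its own values.

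**Figure D1:**
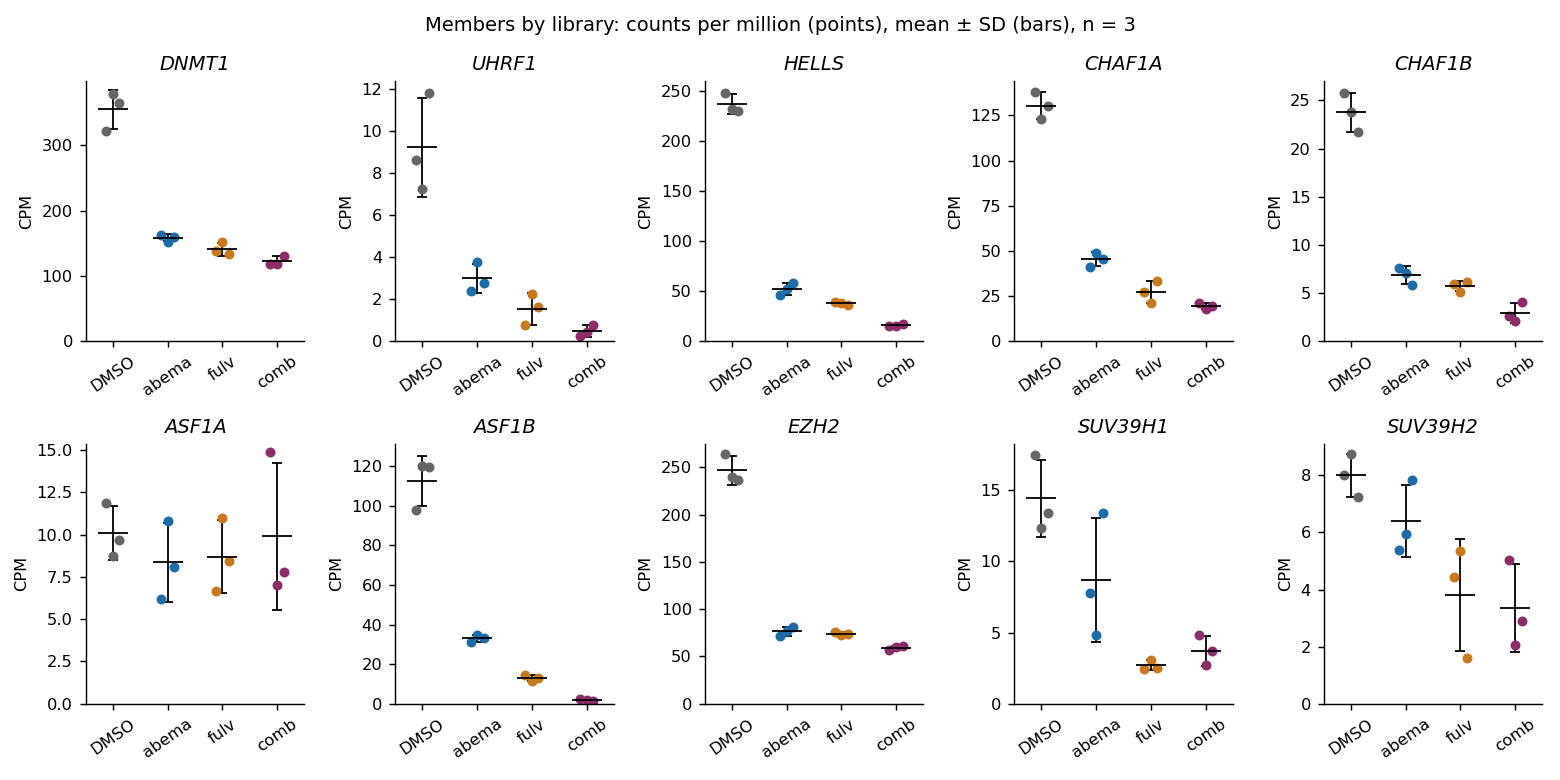
Level of each member in CPM (y axis, linear from 0, scaled per gene) in the 12 libraries, by treatment (x axis; abema, abemaciclib; fulv, fulvestrant; comb, combination). Points are libraries, and black bars are the mean ± SD of 3 libraries. ASF1A overlaps between all groups, and the treated libraries of DNMT1, UHRF1, HELLS, CHAF1A, CHAF1B, ASF1B and EZH2 lie below every DMSO library.

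The maintenance methyltransferase DNMT1 (chromosome 19, 10133342 to 10231286, minus strand, GRCh38) was read at 322, 379 and 365 CPM in the 3 DMSO libraries and at 162, 152 and 160 CPM with abemaciclib. It was read at 138, 152 and 133 CPM with fulvestrant and at 118, 119 and 131 CPM with the combination. Every treated library was below every DMSO library, while the treated groups lay close together. The log2 fold change was -1.17 ± 0.08 (SE) with abemaciclib (adjusted p = 6.72e-12), -1.34 ± 0.08 with fulvestrant (adjusted p = 1.98e-13) and -1.54 ± 0.08 with the combination (adjusted p = 7.41e-15). DNMT1 kept 34.5% of its DMSO level in the combination, the largest remainder among the 8 members that fell in all 3 treatments. Fulvestrant and abemaciclib did not differ past the threshold (log2 difference -0.17, 95% CI -0.34 to 0.00450, adjusted p = 0.142).

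UHRF1, the reader that brings DNMT1 to newly copied DNA (chromosome 19, 4903080 to 4962154, plus strand), kept few reads after treatment. Its raw counts were 29, 38 and 57 in DMSO, 12, 17 and 11 with abemaciclib, 3, 8 and 7 with fulvestrant and 1, 2 and 4 with the combination. The DMSO libraries were the highest, and in CPM the combination overlapped with fulvestrant and with no other group. The level was 9.20 ± 2.34 CPM in DMSO and 32.4% of it with abemaciclib, 16.6% with fulvestrant and 5.18% with the combination. The 3 differences passed (log2 fold change -1.62 ± 0.33, -2.59 ± 0.42 and -4.15 ± 0.60, adjusted p = 1.78e-04, 1.42e-06 and 7.14e-09). With 7 counts over the combination libraries against 124 in DMSO, the ratio of summed counts was 18.6-fold lower (95% counting interval 8.76 to 47.2). UHRF1 passed the filter on low counts through its DMSO and abemaciclib libraries, the 6 of 12 that were over the filter's minimum.

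HELLS, the nucleosome remodeller (chromosome 10, 94545329 to 94613905, plus strand), stepped down at every treatment. Its libraries held 248, 231 and 230 CPM in DMSO, 45.8, 51.4 and 58.4 CPM with abemaciclib, 39.0, 37.8 and 36.0 CPM with fulvestrant and 14.9, 15.1 and 16.7 CPM with the combination. No group overlapped with another. The log2 fold change against DMSO was -2.19 ± 0.09 with abemaciclib, the largest fall of any member with that drug, -2.65 ± 0.10 with fulvestrant and -3.92 ± 0.11 with the combination (adjusted p = 3.20e-16, 5.29e-18 and 3.15e-21). HELLS and ASF1B were the only members for which all 6 pairwise comparisons passed the test.

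The E2F letters TTTCCCGC, TTTGGCGC, TTTGCCGC and TTTCGCGC were searched on both strands of RefSeq promoter windows (GRCh38.p14, 250 bases before to 50 after a start site), since several members are described as E2F targets. A match is a description of the letters and says nothing of binding. At least 1 match lay in 5 of the members' 14 windows and in 4 of the 10 members, against 3.31% of all 35116 windows and 3.99% of all 27305 genes with a window. The matches are shown with 15 bases on each side, 5′ to 3′ on the gene's strand, with the match in capitals; a match on the opposite strand appears as its reverse complement, and the number after the name is the position of the match's first base from the start site. They lie at chr19:10194933-10194970 (DNMT1, minus strand), chr19:4909472-4909509 and chr19:4909969-4910006 (UHRF1, plus strand, at different start sites), chr10:94545697-94545734 and chr10:94545765-94545802 (HELLS, plus strand) and chr7:148884268-148884305 (EZH2, minus strand).
DNMT1 at -2: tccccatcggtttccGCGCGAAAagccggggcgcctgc
UHRF1 at -14: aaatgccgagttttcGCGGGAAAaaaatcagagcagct
UHRF1 at -160: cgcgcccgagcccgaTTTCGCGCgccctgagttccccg
HELLS at -76: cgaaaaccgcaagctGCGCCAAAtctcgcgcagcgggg
HELLS at -8: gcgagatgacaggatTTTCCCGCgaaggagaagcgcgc
EZH2 at 2: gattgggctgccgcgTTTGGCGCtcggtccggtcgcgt

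CHAF1A (chromosome 19, 4402640 to 4445018, plus strand) and CHAF1B (chromosome 21, 36385392 to 36419015, plus strand) encode subunits of CAF-1, the complex that PCNA recruits to lay down nucleosomes on new DNA. CHAF1A was read at 138, 123 and 130 CPM in DMSO, 41.2, 49.0 and 45.5 CPM with abemaciclib, 26.9, 21.2 and 33.3 CPM with fulvestrant and 20.9, 17.6 and 19.2 CPM with the combination. CHAF1B was read at 25.8, 23.8 and 21.7 CPM in DMSO, 7.60, 7.06 and 5.81 CPM with abemaciclib, 5.93, 5.08 and 6.15 CPM with fulvestrant and 2.65, 2.07 and 4.08 CPM with the combination. For both subunits every treated library was below every DMSO library. The log2 fold changes of CHAF1A were -1.53 ± 0.12, -2.25 ± 0.13 and -2.76 ± 0.13, and those of CHAF1B were -1.78 ± 0.21, -2.04 ± 0.22 and -2.99 ± 0.26, in the order abemaciclib, fulvestrant and combination (largest adjusted p = 5.13e-08). The ratio of CHAF1A to CHAF1B counts within a library was 5.51 ± 0.43 in DMSO, 6.73 ± 1.22 with abemaciclib, 4.71 ± 0.64 with fulvestrant and 7.04 ± 2.04 with the combination (SD, n = 3). None of its differences from DMSO was below an exact two-sided permutation p of 0.2, where 3 libraries against 3 cannot go below 0.1.

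ASF1B and ASF1A are paralogous chaperones of histones H3 and H4, of which ASF1B is the form tied to dividing cells and ASF1A also serves the replication-independent HIRA pathway. Their levels did not move together. ASF1B (chromosome 19, 14119512 to 14136613, minus strand) was read at 97.9, 120 and 119 CPM in DMSO, 31.2, 34.7 and 33.4 CPM with abemaciclib, 14.6, 11.3 and 13.2 CPM with fulvestrant and 2.41, 2.07 and 1.36 CPM with the combination. The 4 groups did not overlap, and the combination libraries held 10, 10 and 7 counts. The log2 fold change was -1.77 ± 0.12 with abemaciclib, -3.11 ± 0.14 with fulvestrant and -5.86 ± 0.26 with the combination (adjusted p = 1.81e-12, 1.01e-16 and 2.37e-20). The last value is a 58.2-fold fall (95% CI 40.0 to 84.8), which left 1.73% of the DMSO level and was the largest change of any member.

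ASF1A (chromosome 6, 118894152 to 118909171, plus strand) was read at 11.9, 8.74 and 9.71 CPM in DMSO, 6.20, 10.8 and 8.09 CPM with abemaciclib, 6.67, 11.0 and 8.43 CPM with fulvestrant and 14.9, 7.03 and 7.77 CPM with the combination. Its 4 groups overlapped, and combination replicate 1 was the highest library. The log2 difference from DMSO was -0.26 with abemaciclib (95% CI -0.83 to 0.31, adjusted p = 0.481), -0.21 with fulvestrant (95% CI -0.78 to 0.37, adjusted p = 0.560) and -0.03 with the combination (95% CI -0.58 to 0.52, adjusted p = 0.926). These intervals still admit a change of up to 0.83 on the log2 scale, and single libraries moved them: the values were -0.07 without abemaciclib replicate 1, -0.04 without fulvestrant replicate 1 and, for the combination, -0.42 without combination replicate 1. At 27 to 62 counts per library, a change of ASF1A within these intervals could not be told apart from none.

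Within each library the ratio of ASF1B to ASF1A counts, which the scaling of libraries cannot alter, was 11.4 ± 2.85 in DMSO, 4.12 ± 0.91 with abemaciclib, 1.59 ± 0.58 with fulvestrant and 0.210 ± 0.073 with the combination (SD, n = 3). All DMSO libraries lay between 8.25 and 13.7, and all combination libraries between 0.161 and 0.294. The groups did not overlap in any of the 6 pairwise comparisons, and each gave an exact two-sided permutation p of 0.1, the smallest that 3 against 3 allows. The size of the ratio is in 3′ reads and is not a ratio of molecules corrected for transcript length or priming.

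**Figure D2:**
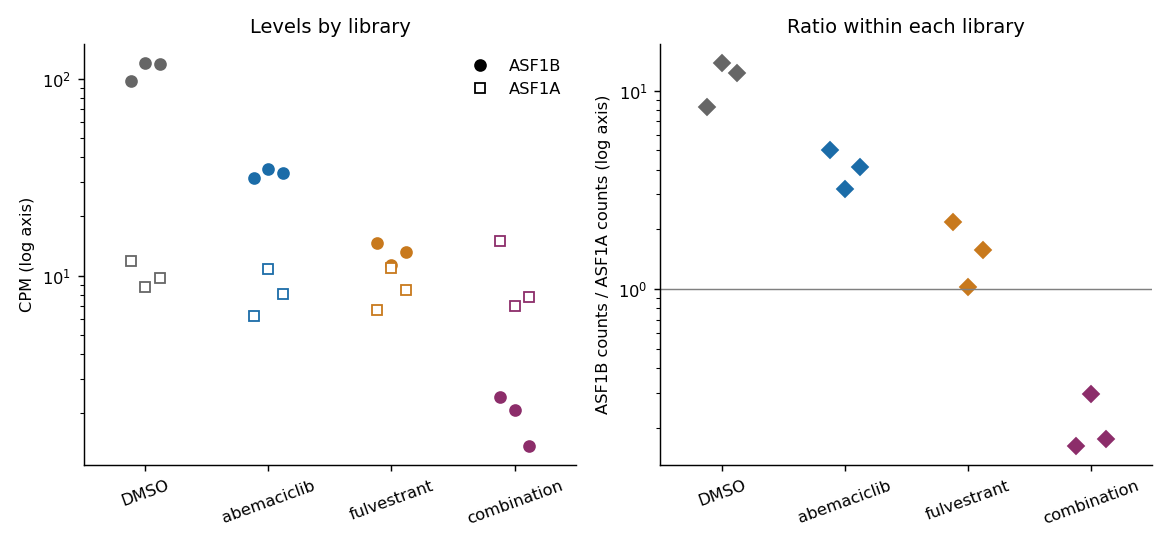
Left, level of ASF1B (filled circles) and ASF1A (open squares) in CPM on a log axis in the 3 libraries of each treatment; right, ASF1B counts divided by ASF1A counts in the same libraries on a log axis, with the grey line at 1. The ratio fell from 11.4 in DMSO to 0.210 in the combination while ASF1A stayed between 6.20 and 14.9 CPM.

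In the ASF1B promoter window, none of the E2F letters searched occurred. It did hold the letters TTTGAA of the cell cycle genes homology region (CHR, searched as TTTGAA or TTCGAA on both strands), as did SUV39H2, and CHR letters occurred in 16.4% of all windows, so 2 of 10 members is near the 19.5% of all genes with at least 1 such window. CCAAT, also searched on both strands, occurred in 7 members and in 39.7% of all genes. The stretch of the ASF1B promoter with both motifs (chr19:14136603-14136648, minus strand) and that around the SUV39H2 match (chr10:14878836-14878881, plus strand) are shown 5′ to 3′ on the gene's strand with CHR and CCAAT letters in capitals, the latter as its reverse complement.
ASF1B at -27: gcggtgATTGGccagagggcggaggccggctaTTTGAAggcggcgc
SUV39H2 at 3: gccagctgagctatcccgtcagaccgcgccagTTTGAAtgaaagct

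EZH2, the H3K27 methyltransferase (chromosome 7, 148807257 to 148884321, minus strand), was read at 265, 240 and 236 CPM in DMSO. It was read at 71.8, 77.0 and 80.9 CPM with abemaciclib, 76.1, 73.1 and 73.6 CPM with fulvestrant and 56.8, 59.5 and 61.0 CPM with the combination. All treated libraries were below DMSO and the 2 single drugs overlapped. The log2 fold change was -1.69 ± 0.08 with abemaciclib (adjusted p = 4.30e-15), -1.73 ± 0.08 with fulvestrant (adjusted p = 1.19e-15) and -2.06 ± 0.08 with the combination (adjusted p = 1.72e-17). The drugs differed from each other by -0.04 on the log2 scale (fulvestrant minus abemaciclib, 95% CI -0.22 to 0.14, adjusted p = 0.766), an interval that reaches no further than 1.17-fold lower with fulvestrant.

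The H3K9 methyltransferases SUV39H1 and SUV39H2 build pericentromeric heterochromatin. SUV39H1 (chromosome X, 48695554 to 48709016, plus strand) was read at 17.5, 12.4 and 13.4 CPM in DMSO, 7.80, 4.86 and 13.4 CPM with abemaciclib, 2.47, 3.10 and 2.51 CPM with fulvestrant and 4.81, 2.69 and 3.69 CPM with the combination. Abemaciclib replicate 3 lay within the DMSO range, while the fulvestrant and combination libraries were all below DMSO. The log2 fold change was -2.40 ± 0.36 with fulvestrant (adjusted p = 7.42e-07) and -1.94 ± 0.31 with the combination (adjusted p = 3.89e-06). With abemaciclib it was -0.73 ± 0.26 (adjusted p = 0.0271), a call that was lost with DESeq2 (adjusted p = 0.0890), after thinning to equal depth (adjusted p = 0.0567) and without DMSO replicate 1 (-0.59), abemaciclib replicate 1 (-0.66) or abemaciclib replicate 2 (-0.45), whereas it was -1.15 without abemaciclib replicate 3. SUV39H1 was lower with fulvestrant than with abemaciclib (log2 difference -1.67 ± 0.37, adjusted p = 6.31e-04).

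SUV39H2 (chromosome 10, 14878820 to 14904315, plus strand) was read at 8.01, 8.74 and 7.23 CPM in DMSO, 5.40, 5.96 and 7.83 CPM with abemaciclib, 4.45, 5.36 and 1.60 CPM with fulvestrant and 5.05, 2.07 and 2.91 CPM with the combination. The abemaciclib libraries overlapped with DMSO and the others did not. The log2 difference with abemaciclib was -0.34 (95% CI -0.96 to 0.29, adjusted p = 0.396, and -0.22 without abemaciclib replicate 1). It fell by 1.28 on the log2 scale with the combination (SE 0.34, adjusted p = 0.00190) and by 1.11 with fulvestrant (SE 0.35, adjusted p = 0.00764), but without fulvestrant replicate 3, which held 7 counts, the latter was -0.71 (adjusted p = 0.0637).

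**Figure D3:**
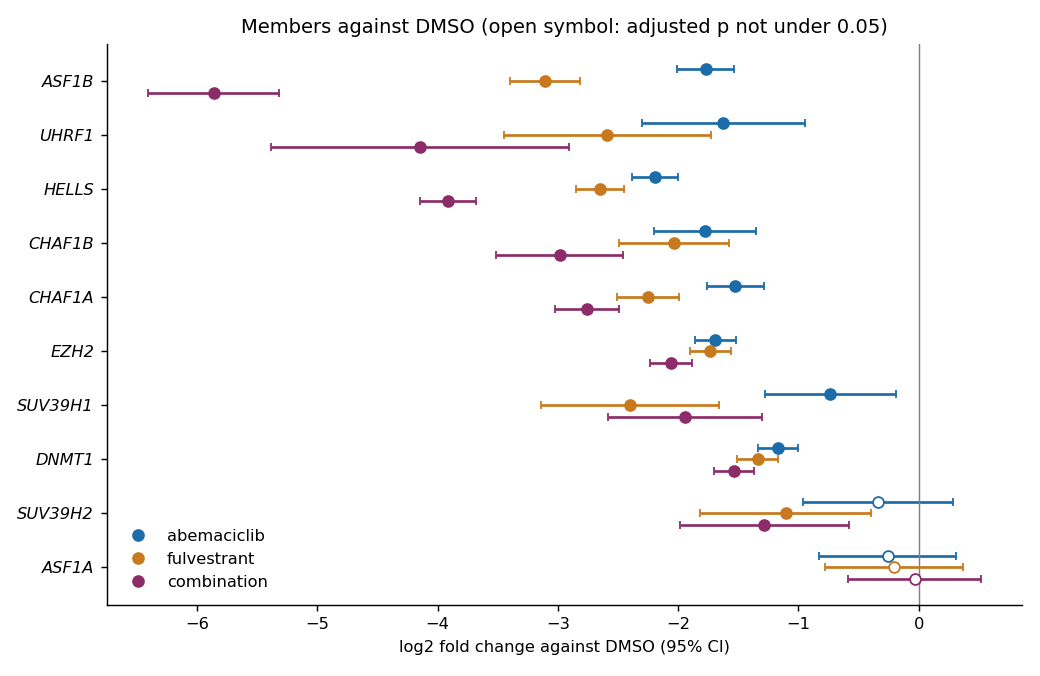
Log2 fold change of each member against DMSO (x axis) with its 95% confidence interval from the edgeR fit, for abemaciclib, fulvestrant and the combination (colours; filled symbols passed at adjusted p under 0.05). Members are ordered by the percentage of the DMSO level kept in the combination, from ASF1B (1.73%) at the top to ASF1A (98.0%) at the bottom.

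To ask what ER degradation adds to CDK4/6 inhibition, the combination was compared with abemaciclib alone. Members called lower numbered 9 of 10, against 17.7% of all genes tested, and none was called higher, against 15.9%. The log2 difference was -4.09 ± 0.27 for ASF1B, -2.52 ± 0.63 for UHRF1, -1.73 ± 0.12 for HELLS, -1.23 ± 0.14 for CHAF1A and -1.21 ± 0.28 for CHAF1B (largest adjusted p among them 0.00102). DNMT1 and EZH2 moved least among those called, by -0.37 ± 0.08 and -0.37 ± 0.09 (adjusted p = 0.00128 and 0.00176). SUV39H1 was at -1.21 ± 0.33 (adjusted p = 0.00434), but at -0.79 without abemaciclib replicate 3 (adjusted p = 0.0721). SUV39H2 was at -0.95 ± 0.35 (adjusted p = 0.0348), a call lost with DESeq2 (adjusted p = 0.0830), after thinning (adjusted p = 0.0544) and without abemaciclib replicate 2 (-0.99), abemaciclib replicate 3 (-0.79), combination replicate 2 (-0.70) or combination replicate 3 (-0.86).

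The reverse question, what CDK4/6 inhibition adds to ER degradation, gave fewer calls. Against fulvestrant alone, 2 of 10 members were lower in the combination, where 1.63% of all genes were called lower and 0.297% higher, and no member was higher. HELLS was 2.41-fold lower (95% CI 2.02 to 2.87, adjusted p = 3.41e-08) and ASF1B 6.76-fold lower (95% CI 4.53 to 10.1, adjusted p = 5.82e-09). EZH2 (-0.33, adjusted p = 0.0549), CHAF1A (-0.51, adjusted p = 0.0738), CHAF1B (-0.95, adjusted p = 0.101) and DNMT1 (-0.20, adjusted p = 0.353) did not pass the test. UHRF1 was at -1.56 (95% CI -2.96 to -0.15 before adjustment, adjusted p = 0.297), SUV39H2 at -0.18 (adjusted p = 0.911) and SUV39H1 at 0.46 (95% CI -0.38 to 1.30, adjusted p = 0.725, and 0.25 without combination replicate 1), and their libraries overlapped. SUV39H2 ranged from -0.57 without fulvestrant replicate 3 to 0.14 without fulvestrant replicate 2. EZH2 passed without fulvestrant replicate 3 (-0.33, adjusted p = 0.0391), CHAF1A without fulvestrant replicate 2 (-0.65, adjusted p = 0.00926) and CHAF1B without combination replicate 3 (-1.29, adjusted p = 0.0437). Without fulvestrant replicate 3, CHAF1A was at -0.33, and the number of all genes called rose from 192 to 403 lower and from 35 to 185 higher.

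Between the single drugs, 4 of 10 members were lower with fulvestrant than with abemaciclib and none was higher, against 15.5% and 13.4% of all genes. Beside SUV39H1 these were ASF1B (-1.33 ± 0.15, adjusted p = 7.19e-08), CHAF1A (-0.72 ± 0.13, adjusted p = 1.18e-04) and HELLS (-0.46 ± 0.11, adjusted p = 0.00148). UHRF1 (-0.97, 95% CI -1.91 to -0.0225, adjusted p = 0.107, and -0.63 without fulvestrant replicate 1), SUV39H2 (-0.77, adjusted p = 0.102) and DNMT1 did not pass the test. SUV39H2 rested on single libraries, at -1.08 without fulvestrant replicate 2 (adjusted p = 0.0390) and -0.37 without fulvestrant replicate 3 (adjusted p = 0.440). CHAF1B did not pass either (-0.26, 95% CI -0.77 to 0.26).

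Whether the abemaciclib step differed with and without fulvestrant was tested as an interaction, the log2 difference between combination and fulvestrant minus that between abemaciclib and DMSO. For a gene that abemaciclib lowered on its own, a positive value means that its step was less negative in the presence of fulvestrant. The value was positive past the threshold for 4 of 10 members, against 9.49% of all genes, and negative for 1, against 11.6%. In the partner lists read below, it was positive for 10 of 25 histone chaperone and supply genes and negative for 0. The counts were 5 positive and 0 negative of 19 DNA methylation partners, and 3 and 0 of 10 PRC2 partners. Of 17 H3K9 genes, 5 were positive and 2 negative, so the positive direction was not particular to the members. Among the members EZH2 had the largest value (1.36 ± 0.12, adjusted p = 6.95e-09), since its step was -1.69 without and -0.33 with fulvestrant. CHAF1A (1.02 ± 0.19, adjusted p = 2.44e-04), DNMT1 (0.97 ± 0.12, adjusted p = 8.44e-07) and HELLS (0.92 ± 0.15, adjusted p = 8.81e-05) went the same way. Of these 4, HELLS alone passed the test for the step within fulvestrant.

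ASF1B went the other way. Its abemaciclib step was -1.77 without and -2.76 with fulvestrant, an interaction of -0.98 ± 0.30 (adjusted p = 0.0146), which was -0.78 without combination replicate 3 (adjusted p = 0.0881). The remaining 5 members did not pass. SUV39H1 had a value of 1.19 ± 0.49 (adjusted p = 0.0765), which passed without abemaciclib replicate 3 (1.61, adjusted p = 0.0131), and CHAF1B one of 0.83 ± 0.36 (adjusted p = 0.103), which was 0.48 without combination replicate 3. ASF1A (0.43, adjusted p = 0.470, and 0.03 without combination replicate 1) and SUV39H2 (0.16, adjusted p = 0.855, and -0.24 without fulvestrant replicate 3) did not pass either. UHRF1 could hardly be read (0.07, 95% CI -1.49 to 1.63), since its combination libraries held 1, 2 and 4 counts. PCNA had an interaction of 1.64 ± 0.17, TOP2A one of -1.30 ± 0.16 and MKI67 one of -1.06 ± 0.25. The largest adjusted p among these 3 proliferation transcripts was 0.00134. MKI67 held 9 to 12 counts in the combination libraries, and how these values relate to those of the members was not tested.

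**Figure D4:**
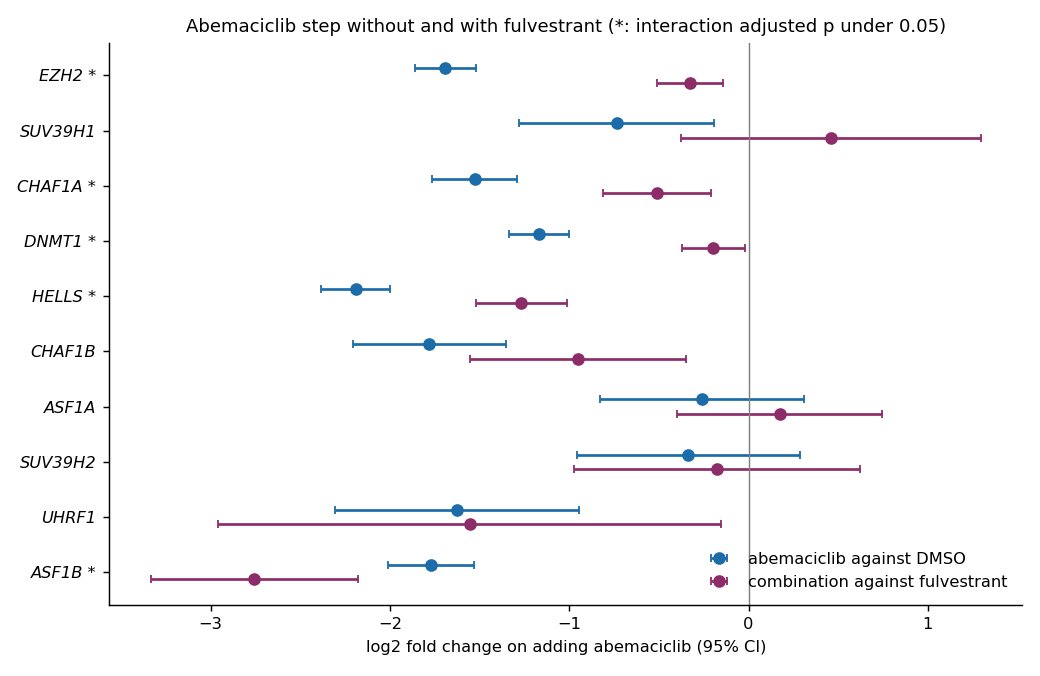
Log2 fold change on adding abemaciclib (x axis, with 95% confidence intervals) to vehicle (abemaciclib against DMSO) and to fulvestrant (combination against fulvestrant) for each member, ordered by the interaction; a star marks an interaction with adjusted p under 0.05. The step shrank in the presence of fulvestrant for EZH2, CHAF1A, DNMT1 and HELLS and grew for ASF1B.

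The genes whose log2 CPM followed the members most closely over the 12 libraries were ranked among 8465 genes as a description, since the libraries fall into 4 groups and share their treatments. The mean standardised profile of the 10 members was nearest to CENPO, FADS1, BARD1, CEP135 and MCM7 (Pearson r 0.988 to 0.984). ASF1B was nearest to KNL1 (r 0.998), TOP2A (r 0.995) and DLGAP5 (r 0.995). EZH2 was nearest to PCNA (r 0.993), SSRP1 (r 0.992) and DHTKD1 (r 0.992), and HELLS to SMC4, GINS2 and CENPU (r 0.994 to 0.992). DNMT1 was nearest to ANP32B (r 0.991), UHRF1 to NUF2 (r 0.976), CHAF1A to RPS16 (r 0.990) and CHAF1B to PRC1 (r 0.981). SUV39H1 was nearest to LSM11 (r 0.959) and SUV39H2 to ANKRD13B (r 0.953), while for ASF1A no gene exceeded an r of 0.808 (RN7SL1).

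Partners of the members were read from 4 lists. Of all genes tested, 20.7%, 25.7% and 27.5% were called lower with abemaciclib, fulvestrant and the combination, and 20.5%, 25.3% and 27.7% higher. Of 19 DNA methylation partners tested, 8 fell and 1 rose with abemaciclib, and 9 fell and 4 rose with fulvestrant and with the combination. With fulvestrant, 2 rose without fulvestrant replicate 3 and also without DMSO replicate 3. The list's median log2 fold change was -0.22, -0.12 and -0.15 in that order. CDCA7, the zinc finger protein that recruits HELLS to nucleosomes, had the largest fall, from 27.3 ± 5.99 CPM in DMSO to 2.34 ± 0.65, 1.54 ± 0.72 and 0.473 ± 0.432 CPM (adjusted p = 6.33e-11, 9.87e-12 and 2.52e-13). Its relative CDCA7L fell from 36.9 to 10.8, 11.5 and 5.82 CPM, and LIG1, the ligase that joins Okazaki fragments, from 72.5 to 28.2, 16.8 and 14.0 CPM. The de novo methyltransferases moved in opposite directions. DNMT3B fell from 49.7 CPM to 28.1, 22.4 and 21.8 CPM (largest adjusted p = 1.49e-05), while DNMT3A rose from 55.5 ± 11.3 CPM to 73.3 ± 4.69, 74.6 ± 2.31 and 76.3 ± 3.15 CPM (adjusted p = 0.00367, 0.00164 and 6.93e-04). ZBTB33, which binds methylated DNA, rose with the combination (25.5 to 41.3 CPM, adjusted p = 3.62e-05), as did the stress-response gene GADD45A (3.01 to 7.11 CPM, adjusted p = 0.00327).

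Of 25 histone chaperone and histone supply genes, 14, 16 and 14 fell and 0, 1 and 3 rose with abemaciclib, fulvestrant and the combination, and the median was -0.45, -0.59 and -0.54 (with abemaciclib, 1 was higher at an unadjusted p under 0.05 and 0 with DESeq2). HJURP, the chaperone that loads the centromeric histone CENP-A, fell from 62.5 ± 3.01 CPM to 16.4 ± 1.75, 7.98 ± 2.41 and 1.37 ± 0.52 CPM (adjusted p = 5.20e-11, 4.78e-14 and 1.63e-17). ANP32E, a chaperone of histone H2A.Z, fell from 65.4 to 18.0, 14.7 and 9.50 CPM, and NASP, which keeps a reserve of soluble H3 and H4, from 112 to 49.6, 41.9 and 38.4 CPM. SLBP, the binding protein of replication-dependent histone mRNA, fell from 42.2 to 19.8, 20.9 and 16.2 CPM, and DNAJC9, a histone co-chaperone, from 70.1 to 34.0, 25.3 and 24.3 CPM. ATRX, which acts in replication-independent H3.3 deposition, rose with the combination (190 to 242 CPM, adjusted p = 0.00139).

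Of 10 EZH2 partners in and around PRC2 that were tested, 5, 6 and 6 fell and none rose, with medians of -0.43, -0.49 and -0.50 (at an unadjusted p under 0.05, 1, 0 and 0 were higher, and 0 with DESeq2). RBBP4 and RBBP7 belong to this list and to the histone chaperone list. The abemaciclib call of PHF1 (adjusted p = 0.0479) was lost with DESeq2 (adjusted p = 0.123) and under several other alternatives. The core subunits SUZ12 (187 to 122, 116 and 129 CPM) and EED (14.9 to 11.3, 8.21 and 8.35 CPM) were called lower with fulvestrant and the combination, and SUZ12 also with abemaciclib (adjusted p = 1.87e-06). PHF19, a Tudor domain subunit that guides PRC2 to chromatin, had its lowest level with abemaciclib (90.7 ± 2.72 CPM in DMSO, 19.6 ± 1.56 with abemaciclib, 40.1 ± 5.24 with fulvestrant and 28.4 ± 5.33 with the combination).

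The H3K9 list went both ways, as did all genes. Of 17 genes tested, 6 fell in each treatment and 4, 8 and 9 rose with abemaciclib, fulvestrant and the combination (medians -0.00231, 0.22 and 0.38). The shares of all genes were 20.7%, 25.7% and 27.5% lower and 20.5%, 25.3% and 27.7% higher in that order. The HP1 genes CBX5 (298 to 190, 192 and 192 CPM) and CBX3 (847 to 590, 531 and 526 CPM), the corepressor TRIM28 (253 to 166, 165 and 139 CPM) and EHMT2, a writer of lower H3K9 methylation (107 to 74.4, 70.8 and 71.9 CPM), were among those that fell. KMT5A, which methylates histone H4 rather than H3K9, as do KMT5B and KMT5C of the same list, fell most (28.8 to 15.1, 10.4 and 10.9 CPM). The genes that rose with the combination were of several kinds, among them the demethylases KDM4A, KDM3A and KDM4B (0.57), the writers EHMT1 (0.55) and SETDB1 (0.38) and the SETDB1 cofactor ATF7IP (0.78 on the log2 scale), while the demethylase KDM4C did not pass (-0.07); SETDB1, ATF7IP and KDM4C were named after their values were seen. KDM4A went from 22.2 ± 2.39 CPM to 41.1 ± 3.18, 43.7 ± 2.51 and 45.4 ± 5.44 CPM (adjusted p = 2.66e-06, 3.75e-07 and 8.41e-08), and KDM3A from 11.0 CPM to 22.1 CPM with fulvestrant and 21.8 CPM with the combination. The lists were read against the shares of all genes called lower and higher given above, and nothing in these counts is particular to them by a test.

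**Figure D5:**
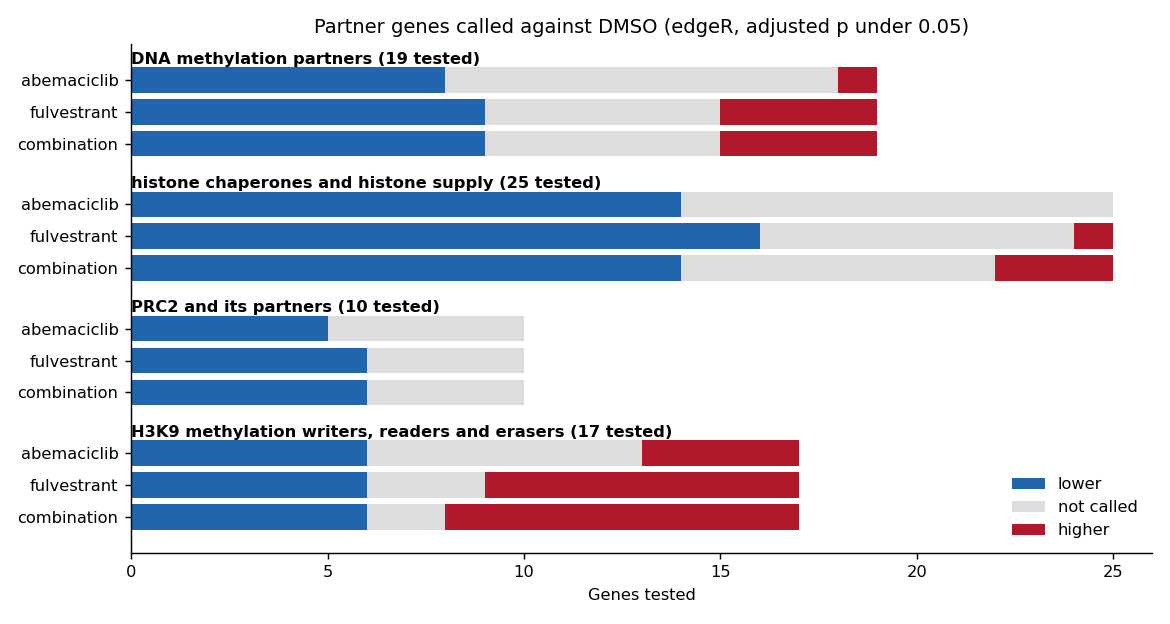
Number of genes tested in each partner list (x axis) that were called lower (blue), not called (grey) or called higher (red) against DMSO, for each treatment. Lower calls outnumber higher calls in the first 3 lists, and in the H3K9 list higher calls outnumber lower ones with fulvestrant and the combination (8 and 9 against 6).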

How the data were processed

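The authors deposited raw counts per gene symbol, 1 column per library. Per the labels and the study's methods, libraries were made with an oligo-dT primed 3′ end kit, reads were aligned with STAR to hg38 and assigned to GENCODE genes with featureCounts 2.0.1. Whether counting used the strand is not given in the sources used here. Near their 3′ ends CHAF1A shares 20 and ASF1B 70 exonic bases with an antisense gene (GENCODE v44). If the strand was not used, reads there cannot be told apart. The interval of a ratio of summed counts covers counting error only. No molecular identifiers are named, so copies of the same molecule may be counted as separate reads, which that interval does not include.

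Of 60656 rows, 44 carried no name and no reads and were left out. The remaining counts were tested with edgeR 4.0.16 in R 4.3.3. Genes passing filterByExpr (minimum count 10, minimum total 15) were kept, libraries were scaled by TMM, and 4 group means were fitted to 12 libraries with robust quasi-likelihood dispersions (common biological coefficient of variation 0.0918). P values of each comparison were adjusted over 11803 genes by Benjamini-Hochberg, with a threshold of 0.05. Standard errors and 95% confidence intervals are those of the fitted coefficients and are not adjusted for multiple testing. They include the spread between libraries, whereas the interval of a ratio of summed counts is exact binomial. CPM values are mean ± SD.

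Members, partner lists and comparisons were chosen with earlier results of these data known. All 10 members were named. From each list, up to 4 genes with the largest called change against DMSO and at least 10 CPM in a group were eligible, with those called against the list's majority; not every eligible gene is named. Genes alike were ranked by Pearson's r on log2 CPM (prior count 2) among genes with a mean of at least 10 CPM. DESeq2 1.42.0, the study's tool, RLE and upper-quartile scaling, filters on low counts, non-robust dispersions, a replicate block, fits of the compared groups, thinning to 3299119 counts and leaving out each library were the alternatives. Scripts were tested on simulated data. Coordinates are from GENCODE v44 on GRCh38, and promoter sequences from RefSeq (GRCh38.p14).

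No pairing of the libraries by replicate number was detected: the deviations of 2 of 18 same-number pairs correlated above 0.1 (r -0.215 to 0.119). Pairs of other numbers had r -0.208 to 0.301, and 5 of 12 libraries deviated most like one of their own number. Such correlations cannot tell how the replicates were set up.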

Additional observations from a re-analysis of the deposited data

Results flagged for a closer look

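The change that abemaciclib produced differed with and without fulvestrant for 5 members, by a test of the interaction itself in the edgeR fit (adjusted p under 0.05). EZH2 had an interaction of 1.36, CHAF1A of 1.02, DNMT1 of 0.97 and HELLS of 0.92 on the log2 scale, so that the abemaciclib step was less negative in the presence of fulvestrant. Within fulvestrant the step passed the test for HELLS and not for EZH2 (adjusted p = 0.0549), CHAF1A (adjusted p = 0.0738) or DNMT1 (adjusted p = 0.353). ASF1B had an interaction of -0.98, so that its step was more negative, and this call was lost without combination replicate 3 (-0.78, adjusted p = 0.0881). With 3 libraries in each group, no library was tested as an outlier.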

How the results depend on the processing

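The members were recomputed under 21 alternatives, which gave 1098 values. Of these, 1062 kept their direction and their side of the threshold, 14 lost a call, 7 gained one and 15 changed sign; each of the 15 came from leaving out 1 library and concerned a value that had not passed. Without 1 library, ASF1A ranged from -0.42 to 0.16 for the combination against DMSO, from -0.17 to 0.46 against abemaciclib and from -0.22 to 0.36 against fulvestrant, and from -0.14 to 0.28 for fulvestrant against abemaciclib. SUV39H2 ranged from -0.57 to 0.14 for the combination against fulvestrant and from -0.24 to 0.47 for the interaction, and the interaction of UHRF1 from -0.47 to 0.41. The number of members with a negative interaction ranged from 0 to 1. With RLE scaling EZH2 passed for the combination against fulvestrant (adjusted p = 0.0455), as did CHAF1A without a filter on low counts (adjusted p = 0.0318). A replicate block changed no member's call, and 8, 9 and 9 members remained lower against DMSO. Fitted on the compared groups alone, UHRF1 did not pass the filter for the combination or abemaciclib against fulvestrant and gave no value. The number of all genes called for the combination against fulvestrant ranged from 119 to 403 lower and from 6 to 185 higher, against 192 and 35.

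For the partner lists the same alternatives were applied after the data had been seen. Of 1095 values of partner genes selected by the rule, 43 lost the call and 0 changed sign, and 344 of 360 counts stayed within 1.5 times. Counts of higher genes moved most, such as 2 in place of 4 DNA methylation partners for fulvestrant without DMSO replicate 3 or fulvestrant replicate 3. Depth limits UHRF1, ASF1A and the SUV39H genes, which held at most 65 counts in any library.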
